A study of Homo sapiens with 33 samples.

Results

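The genes of antigen presentation were followed through 11 high-grade serous ovarian carcinoma cell lines that differ in their sensitivity to platinum drugs. The list held 35 genes, chosen by symbol: 19 of the class I pathway, 14 of the class II pathway, and MICA and MICB, which are class I-like stress ligands. Of these, 34 had a row among the 29744 genes measured, and HLA-DRB1 was not analysed here. Class I and class II genes are described apart.

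RNA sequencing of 33 libraries, 3 per line, covered 4 families of related lines, which the study divides into 4 sensitive and 7 resistant lines. OVCAR3 and OVCAR4 are established lines, and OVCAR3 ResA, OVCAR3 ResB, OVCAR4 ResA and OVCAR4 ResB were each derived from them separately by repeated short pulses of cisplatin at rising doses, with recovery between pulses and no drug kept in the medium afterwards. PEA1 and PEA2 came from a single patient, and PEO1, PEO4 and PEO6 from another, with PEA1 and PEO1 as the sensitive lines, so that in these families time in the patient and platinum treatment cannot be told apart. No line was exposed to interferon or to a drug for the measurement as far as the labels say, and all 11 were grown with serum. The PEA and PEO lines shared a medium, which differed from those of OVCAR3 and OVCAR4. A resistant line and the sensitive one it belongs to form a pair, of which there were 7, and 3 further comparisons set the resistant lines of a family against each other. The sensitive or resistant role comes from the text of the study. Each derived line is a line in itself and no replicate of resistance, and nothing in the labels says that the 3 libraries of a line were separate cultures, so p-values measure only the spread between these libraries.

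Class I molecules are built from a heavy chain (HLA-B, HLA-C and their relatives) and B2M, and show peptides from inside the cell to CD8 T cells. The peptides are cut by the proteasome, whose immune form carries PSMB8, PSMB9 and PSMB10 and is helped by the PSME1 and PSME2 activator. They are carried into the endoplasmic reticulum by TAP1 and TAP2, trimmed by ERAP1 and ERAP2, and loaded with the help of TAPBP, TAPBPL and PDIA3. NLRC5 is the transactivator of class I genes and CIITA that of class II genes, and both act through factors such as RFX5 that bind short promoter boxes. Class II molecules (HLA-DR, HLA-DP and HLA-DQ) show peptides from the endosome to CD4 T cells. They travel with the invariant chain CD74, which CTSS cuts, and HLA-DM loads them while HLA-DO holds HLA-DM back. Class II expression is typical of professional antigen-presenting cells and is acquired by some carcinomas, and interferon gamma raises both pathways through JAK1, JAK2 and IRF1.

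Library totals ran from 18059000 to 43394000 estimated counts, with a median of 30611400. Mitochondrial ribosomal RNA took 1.12% to 14.8% of a library, and in the OVCAR4 family this share split by replicate number: 5.18%, 14.8% and 11.96% in OVCAR4 against 9.23%, 2.02% and 2.09% in OVCAR4 ResA and 13.1%, 2.47% and 2.39% in OVCAR4 ResB. The epithelial markers PAX8, EPCAM, KRT7, KRT8 and KRT18 reached 1 TPM (transcript abundance scaled to gene length and to library total) in all 11 lines, MUC16 in 10 and WT1 in 9. Of 9 haematopoietic markers, MS4A1 was at 0 in every line, CD3E, CD79A, ITGAX, LYZ and CD1C stayed under 1 TPM, CD68 reached 1 TPM in all 11 lines (up to 49.9 ± 1.51 TPM in PEA2), CD14 in 4 (up to 3.02 ± 0.402 TPM in PEO1), and PTPRC passed 1 TPM in PEA2 alone, at 3.30 ± 0.245 (SD, n = 3). Counts below are normalised counts, that is, estimated counts divided by 1 size factor per library over all 33 libraries, and are given in the order of replicate numbers 1 to 3. Fold changes are log2 values, resistant over sensitive, from a DESeq2 fit of each pair with its standard error (SE), and a gene was called when its p-value, adjusted over all genes tested in that pair, was under 0.05. Shares of all genes called are given for these main fits and not for alternative fits. Counts of members called in an alternative fit are therefore not read as results about the members.

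Of 19 class I members, 15 reached 1 TPM in all 11 lines, and of 13 class II members 3 did, namely CD74, HLA-DMA and RFX5. B2M had the highest mean of all members in each line, from 612 ± 229 TPM in OVCAR4 to 3429 ± 773 TPM in PEA1 (mean ± SD, n = 3 throughout for TPM values). HLA-C ran from 44.4 ± 8.09 TPM in OVCAR4 to 686 ± 84.0 TPM in PEO6, and HLA-B from 20.1 ± 4.75 TPM in OVCAR4 to 687 ± 202 TPM in PEA1. OVCAR4 had the lowest mean TPM of the 11 lines for HLA-B, HLA-C, HLA-E, B2M, TAP1, TAP2, PSMB8 and PSMB9, while PEA1 had the highest for HLA-B, HLA-E, HLA-F, B2M, TAP1 and PSMB9. TPM includes the mitochondrial RNA, and over all genes its median log2 change against OVCAR4 was 0.44 in OVCAR4 ResA and 0.47 in OVCAR4 ResB. In normalised counts TAP2 of OVCAR4 (638, 387 and 427) overlapped that of OVCAR4 ResA (358, 437 and 464), so its place depends on the scale. In TAP1, the peptide transporter chain, PEA1 (45.5 ± 16.8 TPM), PEO6 (42.3 ± 9.58) and PEO4 (36.9 ± 15.2) differed by less than the larger SD at the top, and PEO1 (8.91 ± 1.01), OVCAR3 ResB (8.40 ± 2.56) and OVCAR3 ResA (7.60 ± 1.73) did so in the middle. HLA-G, a class I gene of the placenta, reached 1 TPM in PEA1 alone (1.14 ± 0.543 TPM).

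CD74 ran from 2.31 ± 1.34 TPM in PEO4 to 239.7 ± 49.0 TPM in OVCAR3 ResB. HLA-DRA, the alpha chain of HLA-DR, stood at 189.8 ± 136 TPM in PEO6 and 21.9 ± 13.9 TPM in OVCAR3 ResB, at 3.45 ± 1.48 TPM in OVCAR3, and was at 0 in all libraries of OVCAR4, OVCAR4 ResA and PEA2, where 0 allows up to 3 counts per library. CIITA reached 1 TPM in PEO6 (3.49 ± 1.62 TPM) and PEO1 (1.37 ± 0.729 TPM), which differed by more than the larger SD. HLA-DMB had another order and was highest in OVCAR4 (20.6 ± 4.25 TPM) and PEA1 (19.7 ± 7.77 TPM), where HLA-DRA was near 0. HLA alleles differ between patients and reads were quantified against the reference alleles, so HLA levels are less certain between families than within one, and reads of near-identical HLA copies may be split between them.

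**Figure D1:**
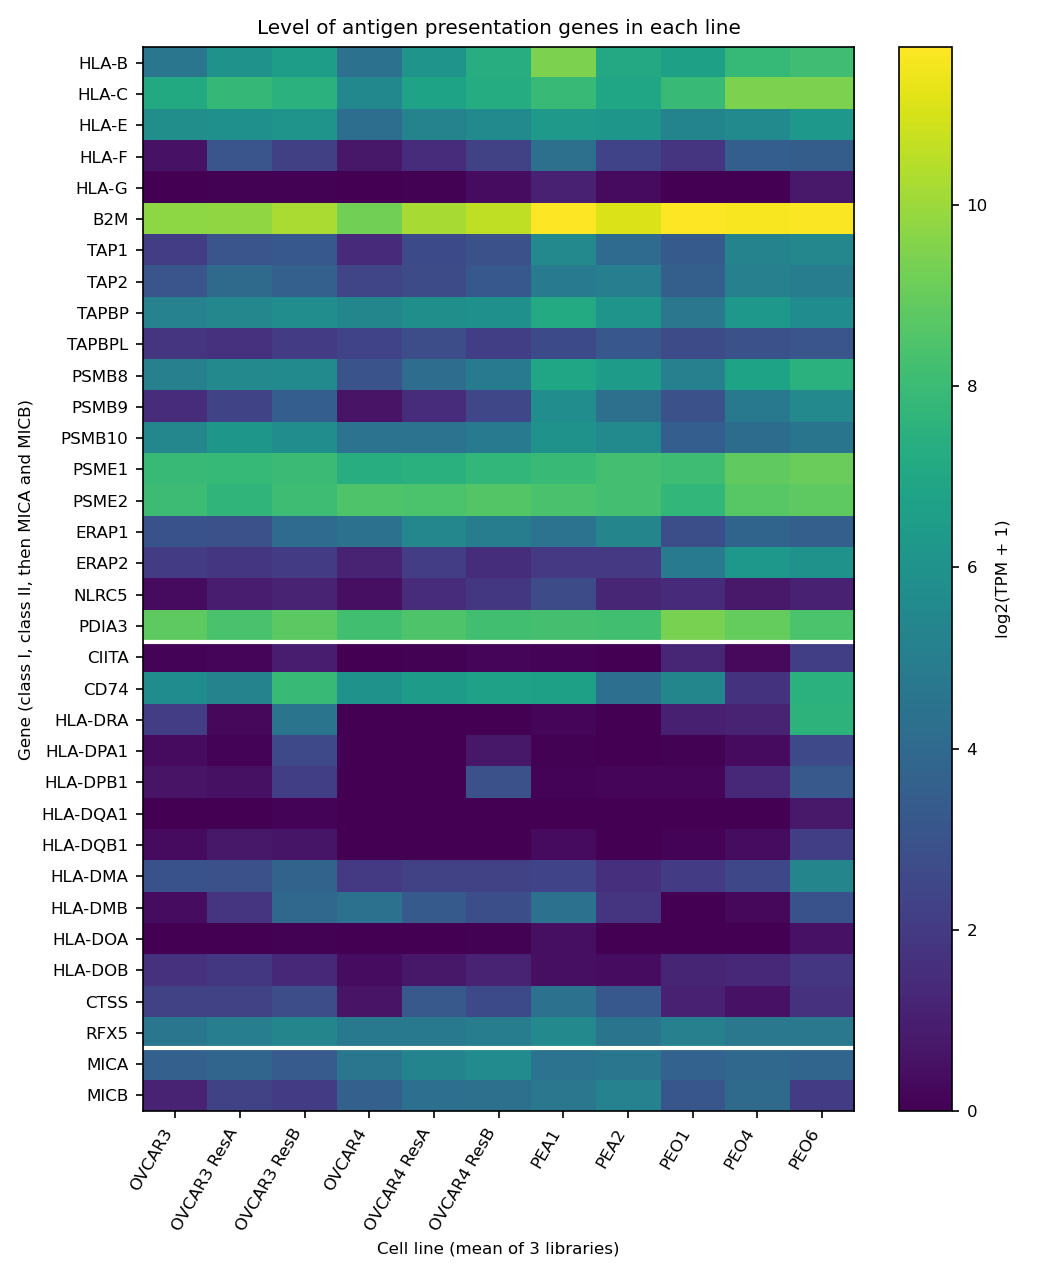
Mean level of each gene with a row in the 11 lines, as log2(TPM + 1) over 3 libraries, with class I genes at the top, class II genes in the middle and MICA and MICB at the bottom. B2M is bright in every line, and among the class II genes from CIITA to HLA-DOA CD74 is the brightest in most lines, with HLA-DRA next to it in PEO6.

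HLA-B, HLA-C and HLA-F lie on chromosome 6 in the major histocompatibility complex (MHC), in GRCh38 at 31353875 to 31357179, 31268749 to 31272092 and 29723434 to 29738532. Their promoters and those of TAP1 and PSMB9, also on chromosome 6, are shown because these are the class I genes with a promoter entry that were called in at least 6 of 7 pairs. The 250 bases before the start of each gene, from RefSeq on GRCh38.p14 and read 5′ to 3′ on the strand of the gene, carry in capitals every match to 4 motifs searched on both strands: an interferon regulatory factor element (GAANNGAAA), a GAS element (TTCNNNGAA), a Y box (CTGATTGG) and an X box (CCNAGNNAC).
HLA-B (chr6:31357180-31357429, - strand): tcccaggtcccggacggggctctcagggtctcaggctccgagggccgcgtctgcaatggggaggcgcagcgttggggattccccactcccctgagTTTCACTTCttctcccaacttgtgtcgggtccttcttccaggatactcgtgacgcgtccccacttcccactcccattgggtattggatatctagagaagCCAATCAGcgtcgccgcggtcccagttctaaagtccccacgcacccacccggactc
HLA-C (chr6:31272093-31272342, - strand): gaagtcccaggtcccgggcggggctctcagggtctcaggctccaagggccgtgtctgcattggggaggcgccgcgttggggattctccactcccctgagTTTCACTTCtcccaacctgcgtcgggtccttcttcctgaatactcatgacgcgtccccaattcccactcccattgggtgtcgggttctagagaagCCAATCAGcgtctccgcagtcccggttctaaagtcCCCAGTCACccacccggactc
HLA-F (chr6:29723184-29723433, + strand): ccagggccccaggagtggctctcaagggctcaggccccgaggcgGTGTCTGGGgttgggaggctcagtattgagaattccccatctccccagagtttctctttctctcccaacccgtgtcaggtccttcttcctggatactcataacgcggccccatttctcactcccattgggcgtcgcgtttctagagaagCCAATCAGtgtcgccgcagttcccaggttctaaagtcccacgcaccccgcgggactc
TAP1 (chr6:32853705-32853954, - strand): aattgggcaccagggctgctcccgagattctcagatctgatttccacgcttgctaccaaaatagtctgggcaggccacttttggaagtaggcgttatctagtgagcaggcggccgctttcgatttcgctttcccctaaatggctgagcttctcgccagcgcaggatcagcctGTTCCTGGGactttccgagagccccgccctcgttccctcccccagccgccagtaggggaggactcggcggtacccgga
PSMB9 (chr6:32853942-32854191, + strand): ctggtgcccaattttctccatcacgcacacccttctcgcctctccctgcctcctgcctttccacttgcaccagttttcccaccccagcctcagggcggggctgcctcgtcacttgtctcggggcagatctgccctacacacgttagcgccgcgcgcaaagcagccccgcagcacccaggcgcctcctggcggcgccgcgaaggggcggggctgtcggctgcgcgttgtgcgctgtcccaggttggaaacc
The capitals mark, on either strand, an interferon regulatory factor element and a Y box in HLA-B, and the same pair and an X box in HLA-C. They mark an X box and a Y box in HLA-F and an X box in TAP1, and PSMB9 held no match. TAP1 has another promoter entry, not shown, which held a GAS element and is counted below. Of 39 promoters of 29 listed genes (1 of them that of HLA-DRB1), 8 held the interferon regulatory factor element, 3 the GAS element, 9 the Y box and 14 the X box. Over all 35116 promoters of the same length the shares were 6.56%, 6.57%, 3.81% and 13.7%. A match is a match of letters and was not tested as a binding site. The interferon regulatory factor pattern was searched with its spacing as written, and elements with another spacing would be missed. The count of 8 is therefore of this pattern alone. A promoter without such a match, as in HLA-F, TAP1 and PSMB9, cannot be taken to lack an interferon regulatory factor element.

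HLA-B, a classical heavy chain, was called in all 7 pairs, higher in 6 resistant lines and lower in PEA2. In the OVCAR3 family it gave 737, 552 and 577 in OVCAR3, 1422, 1518 and 1814 in OVCAR3 ResA, and 2425, 2003 and 2173 in OVCAR3 ResB. In the OVCAR4 family it gave 632, 589 and 563 in OVCAR4, 953, 1861 and 1299.7 in OVCAR4 ResA, and 2192, 3659 and 3413 in OVCAR4 ResB. All resistant libraries of both families lay above all libraries of their parent line. HLA-B of the PEA lines gave 19802, 15201 and 11314 in PEA1 and 3304, 3054 and 3602 in PEA2. HLA-B of the PEO lines gave 2305, 2312 and 2369.7 in PEO1, 6211, 5519 and 4666 in PEO4, and 6722, 6149 and 6940.1 in PEO6. PEA2 lay below PEA1 in every library and PEO4 and PEO6 above PEO1. The log2 changes were 1.37 ± 0.15 (SE, adjusted p = 4.99e-18) in OVCAR3 ResA and 1.85 ± 0.32 (SE, adjusted p = 6.10e-07) in OVCAR3 ResB. In the OVCAR4 lines they were 1.13 ± 0.35 (SE, adjusted p = 0.0183) in OVCAR4 ResA and 2.33 ± 0.34 (SE, adjusted p = 7.67e-10) in OVCAR4 ResB. They were -2.17 ± 0.25 (SE, adjusted p = 4.39e-17) in PEA2, 1.25 ± 0.17 (SE, adjusted p = 8.96e-12) in PEO4 and 1.48 ± 0.21 (SE, adjusted p = 2.09e-11) in PEO6. The HLA-B call lost when the libraries of 1 replicate number were left out was that in OVCAR4 ResA (adjusted p = 0.648 without number 2 and 0.616 without number 3). It was kept in the fit on all its libraries without replicate number as a term (adjusted p = 7.66e-04). Fits that left a number out kept that term on fewer libraries, so a call is harder to reach in them, here and below. As these are bulk samples, fewer cells with a transcript and less of it per cell cannot be told apart, here and in every change below.

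HLA-C, the second classical heavy chain with values here, was higher in 5 resistant lines and lower in PEA2. It gave 3742, 3845 and 3722 in OVCAR3, 5129, 5499 and 6027 in OVCAR3 ResA, and 5014, 4501 and 4103 in OVCAR3 ResB. In the OVCAR4 family the values were 1338, 1456 and 1224 in OVCAR4, 2393, 2663 and 2044 in OVCAR4 ResA, and 2399, 3329 and 3317 in OVCAR4 ResB. The parent lines were again the lowest of their families, with no overlap. PEA2 lay below PEA1 (2649.7, 2843 and 3255 against 7181, 4881 and 4682), and PEO4 and PEO6 lay above PEO1 (17146, 16565 and 14499 and 15775, 16377 and 16515 against 5495, 6320.1 and 5178). The change was largest in PEO4, at 1.53 ± 0.16 (SE, adjusted p = 3.39e-20), and PEO6, at 1.499 ± 0.21 (SE, adjusted p = 9.83e-12), and smaller in OVCAR3 ResA, at 0.58 ± 0.10 (SE, adjusted p = 2.71e-07). In OVCAR3 ResB it was 0.28 ± 0.31 (SE, adjusted p = 0.787) and was not called. OVCAR4 ResA gave 0.79 ± 0.29 (SE, adjusted p = 0.0499), OVCAR4 ResB 1.15 ± 0.31 (SE, adjusted p = 0.00320) and PEA2 -0.90 ± 0.25 (SE, adjusted p = 0.00105). The HLA-C calls lost when the libraries of 1 replicate number were left out were those in OVCAR4 ResA (adjusted p = 0.706 without number 2 and 0.837 without number 3), OVCAR4 ResB (adjusted p = 0.233 without number 2 and 0.441 without number 3) and PEA2 (adjusted p = 0.192 without number 1).

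HLA-F, a nonclassical heavy chain of low abundance, moved over a wider range. It gave 10.99, 11.8 and 6.85 in OVCAR3, 103, 137 and 205 in OVCAR3 ResA, and 107, 83.3 and 43.7 in OVCAR3 ResB, so that OVCAR3 was near 10 counts and both derived lines were above 40. The values were 13.8, 16.5 and 18.3 in OVCAR4, 39.7, 39.5 and 16.8 in OVCAR4 ResA, and 51.1, 69.4 and 66.2 in OVCAR4 ResB, and the OVCAR4 ResA libraries overlapped those of OVCAR4. In the PEA family they were 468, 374 and 212 in PEA1 and 78.7, 75.3 and 87.3 in PEA2. HLA-F of the PEO lines gave 33.4, 50.5 and 50.6 in PEO1, 228, 184 and 173 in PEO4, and 172, 238 and 165 in PEO6. The log2 changes called were 3.83 ± 0.44 (SE, adjusted p = 9.72e-17) in OVCAR3 ResA, 2.96 ± 0.68 (SE, adjusted p = 3.82e-04) in OVCAR3 ResB and 1.92 ± 0.61 (SE, adjusted p = 0.0141) in OVCAR4 ResB. HLA-F was also called in PEA2 at -2.05 ± 0.34 (SE, adjusted p = 1.93e-08), in PEO4 at 2.14 ± 0.33 (SE, adjusted p = 2.06e-09) and in PEO6 at 2.07 ± 0.37 (SE, adjusted p = 1.99e-07). The HLA-F calls lost when the libraries of 1 replicate number were left out were those in OVCAR3 ResB (adjusted p = 0.149 without number 1 and 0.0848 without number 2) and OVCAR4 ResB (adjusted p = 0.447 without number 2 and 0.484 without number 3). HLA-E, the ligand of the inhibitory receptor NKG2A, was called in PEO6 alone, at 0.96 ± 0.23 (SE, adjusted p = 1.33e-04). HLA-G was at 0 in PEO1 and at 35.4, 11.4 and 9.53 in PEO6, at least 6.58-fold higher against a floor of 3 counts per library, with an adjusted p of 2.79e-04, and that call was lost without number 1 (adjusted p = 0.0920). B2M, the common light chain, was called in 0 of 7 pairs by DESeq2 and 0 by edgeR, with an unadjusted p under 0.05 in 2 pairs and 1 pair, and its log2 changes ran from -0.58 ± 0.29 in PEA2 to 0.71 ± 0.31 in OVCAR4 ResB.

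TAP1 and PSMB9 lie head to head on chromosome 6 (32845209 to 32853704 and 32854192 to 32859851), and both were higher in 5 resistant lines and lower in PEA2. TAP1 gave 213, 188 and 143 in OVCAR3, 425, 293 and 367 in OVCAR3 ResA, and 336, 451 and 421 in OVCAR3 ResB. TAP1 of the OVCAR4 lines gave 128, 84.4 and 83.6 in OVCAR4, 178, 267 and 201 in OVCAR4 ResA, and 186, 285 and 282 in OVCAR4 ResB. In both families the parent line was lowest, with no overlap. The PEA lines gave 2743, 1674 and 1576 in PEA1 and 768, 632 and 945 in PEA2. TAP1 of the PEO lines gave 433, 449.9 and 356 in PEO1, 2229, 1735 and 1093 in PEO4, and 1916, 1691 and 2233 in PEO6. The largest TAP1 changes were those of PEO6, 2.21 ± 0.24 (SE, adjusted p = 3.58e-18), and PEO4, 2.001 ± 0.20 (SE, adjusted p = 1.72e-21). OVCAR3 ResA gave 1.02 ± 0.21 (SE, adjusted p = 7.21e-06), OVCAR3 ResB 1.18 ± 0.39 (SE, adjusted p = 0.0398), OVCAR4 ResB 1.34 ± 0.45 (SE, adjusted p = 0.0206) and PEA2 -1.32 ± 0.27 (SE, adjusted p = 5.26e-06), and OVCAR4 ResA, at 1.11 ± 0.45 (SE, adjusted p = 0.0913), was not called. The TAP1 calls lost when the libraries of 1 replicate number were left out were those in OVCAR3 ResB (adjusted p = 0.132 without number 1, 0.615 without number 2, 0.0940 without number 3) and OVCAR4 ResB (adjusted p = 0.499 without number 2 and 0.606 without number 3).

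PSMB9, a catalytic subunit of the immunoproteasome, gave 27.5, 27.5 and 41.1 in OVCAR3, 48.8, 66.7 and 86.4 in OVCAR3 ResA, and 234, 187 and 98.2 in OVCAR3 ResB. PSMB9 of the OVCAR4 lines gave 10.4, 9.93 and 10.4 in OVCAR4, 32.4, 22.8 and 20.0 in OVCAR4 ResA, and 89.7, 61.8 and 36.9 in OVCAR4 ResB. OVCAR4 held about 10 counts per library, the lowest of all lines. The PEA lines gave 798, 1115 and 429.6 in PEA1 and 239, 281 and 366 in PEA2. PSMB9 of the PEO lines gave 103, 105 and 83.2 in PEO1, 380.0, 397 and 356 in PEO4, and 726, 689 and 596 in PEO6. Every PEO4 and PEO6 library was above every PEO1 library, and every PEA2 library below every PEA1 library. The changes called were 1.08 ± 0.41 (SE, adjusted p = 0.0223) in OVCAR3 ResA, 2.40 ± 0.53 (SE, adjusted p = 2.30e-04) in OVCAR3 ResB and 2.53 ± 0.68 (SE, adjusted p = 0.00257) in OVCAR4 ResB. PSMB9 also changed by -1.32 ± 0.34 (SE, adjusted p = 4.23e-04) in PEA2, 1.99 ± 0.25 (SE, adjusted p = 2.23e-14) in PEO4 and 2.76 ± 0.27 (SE, adjusted p = 1.32e-23) in PEO6. The PSMB9 calls lost when the libraries of 1 replicate number were left out were those in OVCAR3 ResA (adjusted p = 0.167 without number 1, 0.234 without number 2, 0.244 without number 3), OVCAR3 ResB (adjusted p = 0.145 without number 1 and 0.123 without number 2), OVCAR4 ResB (adjusted p = 0.228 without number 2 and 0.118 without number 3) and PEA2 (adjusted p = 0.0991 without number 1 and 0.0569 without number 2). PSMB8, its partner subunit, was called higher in OVCAR4 ResB (451, 394 and 398 against 145, 131 and 150.2 in OVCAR4, log2 change 1.53, adjusted p = 2.37e-04), PEO4 (1.73, adjusted p = 8.78e-19) and PEO6. In PEO6 it stood at 3427, 2971 and 2468 against 535, 668 and 448 in PEO1, a 5.30-fold difference, or 2.41 ± 0.23 (SE, adjusted p = 2.18e-24) on the log2 scale. The PSMB8 call lost when the libraries of 1 replicate number were left out was that in OVCAR4 ResB (adjusted p = 0.128 without number 2 and 0.151 without number 3).

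NLRC5, the class I transactivator, did not follow the heavy chains in the PEO family. It gave 20.4, 36.6 and 38.4 in OVCAR3, 80.2, 70.4 and 109.5 in OVCAR3 ResA, and 103, 122 and 109.7 in OVCAR3 ResB. NLRC5 of the OVCAR4 lines gave 53.6, 38.1 and 40.5 in OVCAR4, 117, 149.97 and 139 in OVCAR4 ResA, and 197, 212 and 242 in OVCAR4 ResB. It was higher in all 4 derived lines with no overlap, by 1.498 ± 0.40 (SE, adjusted p = 6.07e-04) in OVCAR3 ResA, 1.88 ± 0.54 (SE, adjusted p = 0.00970) in OVCAR3 ResB, 1.60 ± 0.50 (SE, adjusted p = 0.0180) in OVCAR4 ResA and 2.29 ± 0.44 (SE, adjusted p = 5.53e-06) in OVCAR4 ResB on the log2 scale. The PEA lines gave 612, 457 and 450.4 in PEA1 and 125, 113 and 119 in PEA2. NLRC5 of the PEO lines gave 140.1, 179 and 133 in PEO1, 92.2, 80.7 and 44.1 in PEO4, and 106, 157 and 93.7 in PEO6. NLRC5 was lower in PEA2, at -2.06 ± 0.28 (SE, adjusted p = 1.03e-12), and in PEO4, at -1.08 ± 0.33 (SE, adjusted p = 0.00511), where HLA-B and HLA-C were higher, and at -0.39 ± 0.33 (SE, adjusted p = 0.369) it was not called in PEO6. The NLRC5 calls lost when the libraries of 1 replicate number were left out were those in OVCAR3 ResA (adjusted p = 0.118 without number 1 and 0.0652 without number 3), OVCAR3 ResB (adjusted p = 0.332 without number 1 and 0.309 without number 2), OVCAR4 ResA (adjusted p = 0.574 without number 2 and 0.694 without number 3), OVCAR4 ResB (adjusted p = 0.0769 without number 3) and PEO4 (adjusted p = 0.0595 without number 1, 0.156 without number 2, 0.0758 without number 3).

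**Figure D2:**
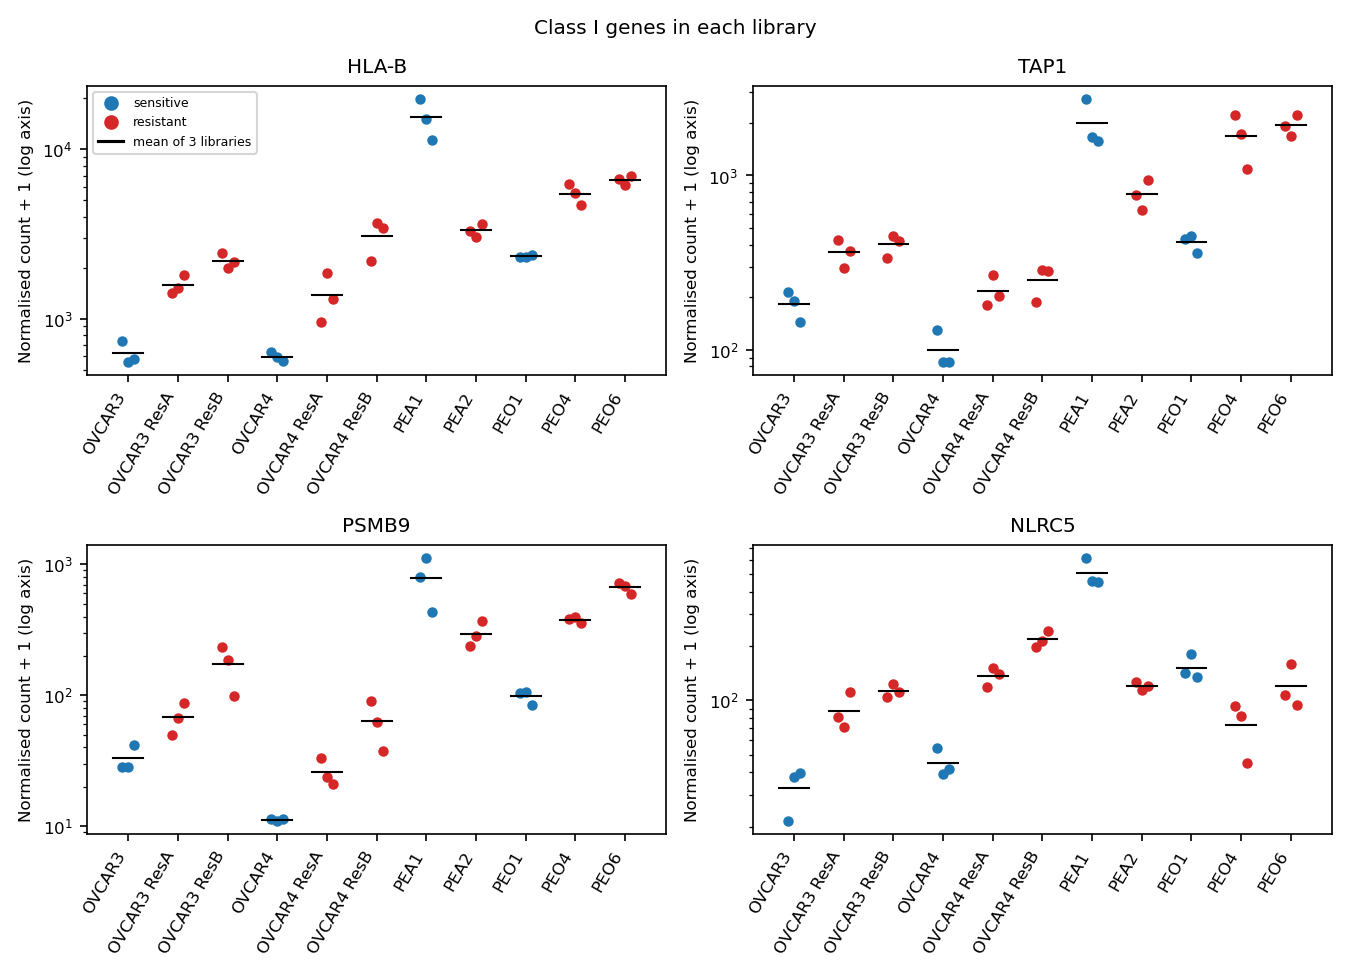
Normalised count + 1 on a log axis of HLA-B, TAP1, PSMB9 and NLRC5 in each of the 33 libraries, with sensitive lines in blue, resistant lines in red and the mean of 3 libraries as a bar. Resistant libraries lie above their sensitive parent in the OVCAR3, OVCAR4 and PEO families for HLA-B, TAP1 and PSMB9, PEA2 lies below PEA1 in every panel, and NLRC5 of PEO4 lies below PEO1.

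Counted by pair, class I members were called more often than genes at large in some pairs and not in others. In PEO4, 13 of 18 class I members tested were higher and 1 lower, where 16.6% of the 17467 genes tested were higher and 16.7% lower, and their median log2 change was 1.12. In PEO6, 15 of 19 were higher and 1 lower against 21.2% and 20.3% of 16803 genes, with a median of 1.10. Both lines had higher HLA-B, HLA-C, HLA-F, TAP1, TAP2, TAPBP, PSMB8, PSMB9, PSMB10, PSME1, PSME2, ERAP1 and ERAP2. These changes ran from 0.70 ± 0.26 in PSMB10 to 2.14 ± 0.33 in HLA-F in PEO4, and from 0.76 ± 0.26 in ERAP1 to 2.76 ± 0.27 in PSMB9 in PEO6. The PSMB10 calls lost when the libraries of 1 replicate number were left out were those in PEO4 (adjusted p = 0.313 without number 1, 0.162 without number 2, 0.0920 without number 3) and PEO6 (adjusted p = 0.0549 without number 2 and 0.0602 without number 3). The ERAP1 calls lost when the libraries of 1 replicate number were left out were those in PEO4 (adjusted p = 0.0541 without number 1) and PEO6 (adjusted p = 0.121 without number 2 and 0.218 without number 3). The ERAP1 and ERAP2 loci overlap on chromosome 5, so without strand their reads cannot be fully told apart. PDIA3, a chaperone of the loading complex, was lower in PEO6 (16950.5, 12689 and 19069 against 29880.4, 28578 and 35595 in PEO1, log2 change -0.99, adjusted p = 1.62e-05). In OVCAR3 ResA, 8 of 18 were higher and 2 lower against 22.0% and 22.9% of 18160 genes. The lower members there were PDIA3 (17561, 16403 and 15012 against 27978, 25012 and 22625 in OVCAR3, log2 change -0.60, adjusted p = 7.40e-10) and PSME2, a proteasome activator chain (1906, 2560.4 and 2892 against 2683, 4499 and 3776, log2 change -0.54, adjusted p = 2.30e-05). The PSME2 libraries of both lines overlapped, and without the replicate block that call was lost (adjusted p = 0.0930). In OVCAR3 ResB, 5 of 18 were higher, against 4.10% higher and 3.57% lower of 16352 genes, and the class I count was 1 without number 1 and 1 without number 2.

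In OVCAR4 ResA, 3 of 18 class I members were higher (HLA-B, HLA-C and NLRC5) against 6.68% higher and 5.22% lower of 14993 genes. OVCAR4 ResB had 7 of 18 higher against 9.09% and 8.77% of 15968 genes. The counts differed with the replicate number left out, the numbers by which the mitochondrial RNA share split: OVCAR4 ResA had 9 class I calls without number 1 and 0 without number 2 or number 3, and OVCAR4 ResB had 14, 2 and 1. The shares of all genes called in those fits are not given here, so no result about the members is read from these counts. On the TPM scale, which includes that RNA, the median log2 change of all genes was 0.44 in OVCAR4 ResA and 0.47 in OVCAR4 ResB (0.14 in OVCAR3 ResA and 0.11 in OVCAR3 ResB), and relative to it HLA-B changed by 1.17 and 2.37. Without the replicate block every class I call of both lines was kept, that of HLA-C at an adjusted p of 6.49e-04 in OVCAR4 ResA and 6.60e-06 in OVCAR4 ResB. The part of the mitochondrial RNA share in the counts was not tested. In PEA2 the balance was the other way, with 7 of 19 class I members lower and 2 higher against 23.8% lower and 23.3% higher of 17204 genes, and a median of -0.42. The higher members were ERAP1, a peptide-trimming aminopeptidase (3289.5, 2969 and 2783 against 1789.8, 692 and 1821 in PEA1, log2 change 1.20, adjusted p = 2.41e-04), and TAPBPL, a peptide editor (209, 222 and 257 against 172, 98.3 and 123, log2 change 0.85, adjusted p = 0.0242, and between 0.134 and 0.286 when a replicate number was left out). Without number 1 the PEA2 count fell from 9 class I calls to 5.

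The PEA lines also differed in markers of other cell types. Of 5 fibroblast markers, 2 reached 1 TPM in PEA1 (COL1A1 at 88.4 ± 20.3 and PDGFRB at 6.55 ± 3.39 TPM) and 0 in PEA2, their sum ran from 69.6 to 116 TPM over the PEA1 libraries and from 0.675 to 1.17 TPM over those of PEA2, and DCN was at 0 in both. EPCAM stood at 14.005 ± 1.20 TPM in PEA1 and 575 ± 36.5 TPM in PEA2, and KRT7 at 2.95 ± 0.313 and 1186 ± 119 TPM. Of 9 haematopoietic markers, 1 reached 1 TPM in PEA1 and 3 in PEA2, with sums of 10.5 to 24.0 TPM and 55.3 to 57.9 TPM, and MS4A1 was at 0 in both. LUM stood at 1.54 ± 1.08 TPM in OVCAR4 and 17.7 ± 11.5 TPM in OVCAR4 ResA, higher by 2.94 ± 0.62 (SE, adjusted p = 9.39e-05) on the log2 scale. Of the 5 fibroblast markers, 1 was called higher and 1 lower in OVCAR4 ResA, where 6.68% of all genes were higher and 5.22% lower. COL1A2 went the other way from LUM, at 0.146 ± 0.0288 TPM in OVCAR4 and 0.00769 ± 0.00666 TPM in OVCAR4 ResA. The 5 fibroblast markers summed to 3.81 to 4.90 TPM in OVCAR4, 8.88 to 30.5 TPM in OVCAR4 ResA and 4.36 to 6.09 TPM in OVCAR4 ResB, where LUM was at 0. In the OVCAR3 family they summed to 5.73 to 9.40 TPM in OVCAR3, 10.3 to 15.5 TPM in OVCAR3 ResA and 11.5 to 13.8 TPM in OVCAR3 ResB, mostly COL1A1. In the PEO lines the sum stayed between 1.09 and 2.04 TPM. Of 7 epithelial markers, 5 were lower and 1 higher in OVCAR3 ResA, where 22.9% of all genes were lower and 22.0% higher. In PEA2, 5 of the 7 were higher and 0 lower, where 23.3% of all genes were higher and 23.8% lower. The part of these markers in the class I and class II results was not tested.

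In PEO4 and PEO6 the neighbours of the MHC genes were higher as well. Of 16 genes that lie between and beside the MHC genes on chromosome 6 and are not among the antigen presentation genes listed, 16 were higher in PEO4, with a median log2 change of 1.14, and 15 in PEO6, with a median of 0.99. Among them, CSNK2B, a kinase subunit, changed by 1.52 ± 0.16 (SE, adjusted p = 4.54e-19) in PEO4, and ABHD16A, a lipid hydrolase, by 2.15 ± 0.26 (SE, adjusted p = 7.15e-15) in PEO6. In the other 5 pairs 0 to 4 of the 16 were higher and 0 to 2 lower, and their medians ran from -0.38 in OVCAR3 ResB to 0.07 in OVCAR3 ResA. In PEO4, 8 of 9 class I members tested on chromosome 6 were higher, with a median of 1.67, and 5 of 9 elsewhere, with a median of 0.70. In PEO6, 10 of 10 on chromosome 6 were higher, with a median of 1.79, and 5 of 9 elsewhere, with a median of 0.76. The part of the region in the class I changes was not tested, and the split by chromosome was chosen after the values were seen.

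**Figure D3:**
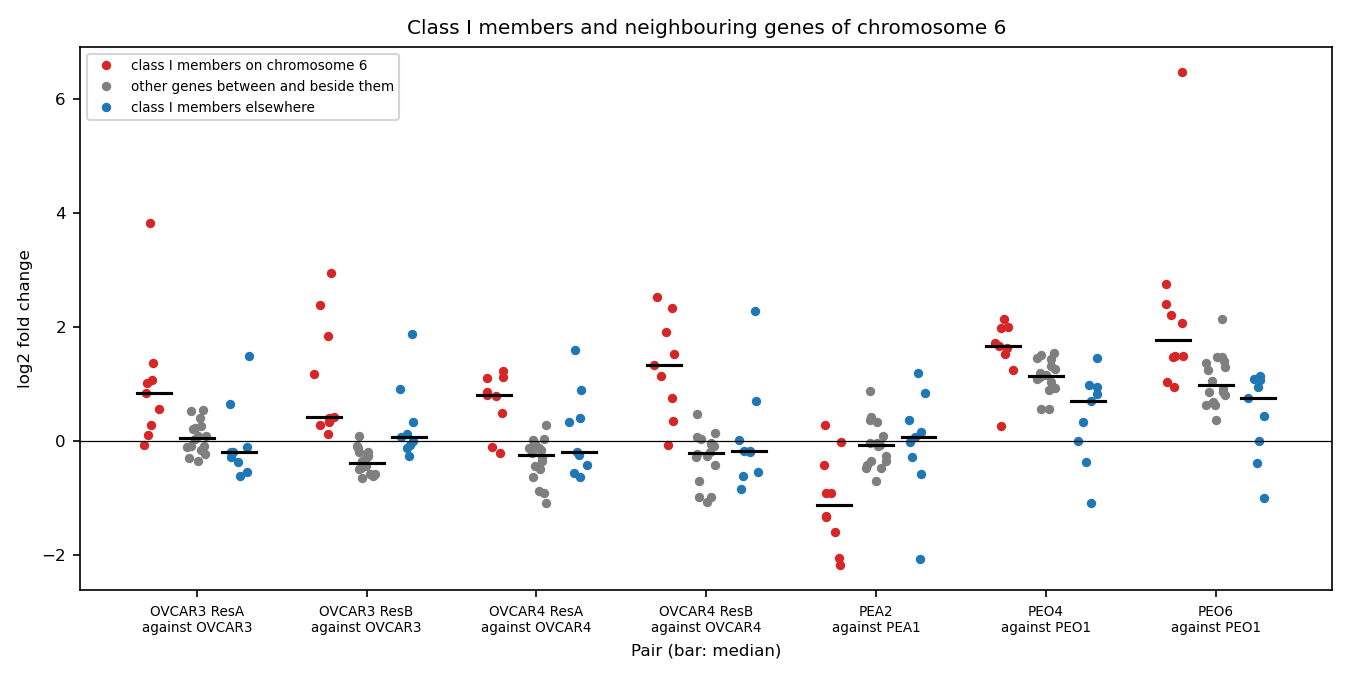
Log2 fold change in each pair of the class I members on chromosome 6 (red), of 16 other genes between and beside the MHC genes (grey) and of the class I members on other chromosomes (blue), with the median of each group as a bar. Grey points sit above 0 throughout in PEO4 and PEO6 and around or below 0 in the other pairs, where the red medians are above the grey ones except in PEA2.

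The promoters of CD74 and HLA-DMB are shown because these were class II genes called in at least 5 of the 7 pairs and with an X box in this window. As above, they are the 250 bases before the gene from RefSeq on GRCh38.p14, 5′ to 3′ on the strand of the gene, with motif matches in capitals. CD74 lies on chromosome 5, 150401639 to 150412910, and HLA-DMB on chromosome 6, 32934636 to 32941028.
CD74 (chr5:150412911-150413160, - strand): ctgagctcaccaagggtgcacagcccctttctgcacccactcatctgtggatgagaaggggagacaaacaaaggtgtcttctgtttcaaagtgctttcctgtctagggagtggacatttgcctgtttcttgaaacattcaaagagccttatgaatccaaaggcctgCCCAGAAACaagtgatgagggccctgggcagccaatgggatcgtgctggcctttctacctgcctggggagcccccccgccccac
HLA-DMB (chr6:32941029-32941278, - strand): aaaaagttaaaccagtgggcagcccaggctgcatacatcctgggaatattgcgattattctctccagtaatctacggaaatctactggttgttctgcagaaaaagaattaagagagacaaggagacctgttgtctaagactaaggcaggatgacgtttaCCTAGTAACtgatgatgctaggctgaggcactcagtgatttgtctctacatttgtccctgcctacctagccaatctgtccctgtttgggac
The capitals are 1 X box match in each.

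CIITA, the class II transactivator, was lower in PEO4 and higher in PEO6 and OVCAR3 ResB. It gave 115, 103 and 34.4 in PEO1, 26.7, 16.3 and 3.67 in PEO4, and 199.9, 318 and 112 in PEO6. CIITA of the OVCAR3 lines gave 7.85, 5.23 and 9.60 in OVCAR3, 8.29, 9.26 and 14.1 in OVCAR3 ResA, and 64.6, 41.7 and 51.1 in OVCAR3 ResB. PEO4 lay below PEO1 in every library, PEO6 overlapped PEO1, and OVCAR3 ResB lay above OVCAR3 in every library. The log2 change was -2.53 ± 0.50 (SE, adjusted p = 2.75e-06) in PEO4, 1.34 ± 0.35 (SE, adjusted p = 6.94e-04) in PEO6 and 2.83 ± 0.77 (SE, adjusted p = 0.00551) in OVCAR3 ResB. The CIITA calls lost when the libraries of 1 replicate number were left out were those in OVCAR3 ResB (adjusted p = 0.277 without number 1 and 0.217 without number 2) and PEO6 (adjusted p = 0.122 without number 2). In the OVCAR4 and PEA families it stayed at or under 11.3 counts in every library. RFX5, which binds the X box, was called in PEA2 alone by DESeq2, where it was lower (-0.89, adjusted p = 3.31e-04), and that call was lost without number 1 (adjusted p = 0.0603).

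CD74, the invariant chain, was called in 5 pairs. It gave 886, 1420.0 and 1678 in OVCAR3, 585, 915 and 1059 in OVCAR3 ResA, and 6465, 8212 and 3268 in OVCAR3 ResB, so that OVCAR3 ResB was the highest of its family in every library. It gave 981, 2598 and 2057 in OVCAR4, 1957, 1616 and 1626 in OVCAR4 ResA, and 2569, 1681 and 1870.1 in OVCAR4 ResB, and the lines of that family overlapped. The PEA lines gave 2269, 2672 and 1563 in PEA1 and 455, 453 and 377 in PEA2. CD74 of the PEO lines gave 869, 954 and 930.4 in PEO1, 77.8, 48.1 and 25.7 in PEO4, and 2831, 7582 and 1963 in PEO6. PEA2 and PEO4 lay far below their sensitive lines, and PEO6 above. The changes were -0.61 ± 0.12 (SE, adjusted p = 4.10e-06) in OVCAR3 ResA, 2.15 ± 0.39 (SE, adjusted p = 2.57e-06) in OVCAR3 ResB and -2.30 ± 0.24 (SE, adjusted p = 5.75e-21) in PEA2. CD74 also changed by -4.24 ± 0.29 (SE, adjusted p = 3.17e-46) in PEO4, which is 18.9-fold lower, and 1.89 ± 0.31 (SE, adjusted p = 1.85e-08) in PEO6. Every CD74 call named here was kept when the libraries of any 1 replicate number were left out. The OVCAR3 ResA libraries overlapped those of OVCAR3, and without the replicate block that call was lost (adjusted p = 0.125).

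HLA-DRA, on chromosome 6, 32439887 to 32445046, stood at 20.5, 36.5 and 3.62 in PEO1, 20.0, 30.9 and 15.9 in PEO4, and 3529, 6351 and 1061 in PEO6. PEO6 lay above PEO1 by 7.54 ± 0.32 (SE, adjusted p = 9.90e-120) on the log2 scale, a 186-fold difference, and number 2 was the highest PEO6 library for all of CIITA, CD74, HLA-DRA, HLA-DPA1, HLA-DPB1, HLA-DQA1, HLA-DQB1, HLA-DMA, HLA-DMB, HLA-DOA and HLA-DOB. In PEO4 the HLA-DRA change was 0.49 ± 0.69 (SE, adjusted p = 0.650) and was not called. In the OVCAR3 family it gave 80.03, 99.4 and 41.1 in OVCAR3, 2.76, 0.926 and 8.04 in OVCAR3 ResA, and 769, 451 and 159 in OVCAR3 ResB. OVCAR3 ResA lay below and OVCAR3 ResB above the parent in every library, with changes of -4.29 ± 0.70 (SE, adjusted p = 8.75e-09) and 2.50 ± 0.42 (SE, adjusted p = 2.50e-07). Every HLA-DRA call named here was kept when the libraries of any 1 replicate number were left out. In the OVCAR4 family it was at 0 in 8 of 9 libraries and at 1.38 in 1 OVCAR4 ResB library.

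HLA-DPA1 and HLA-DPB1, the chains of HLA-DP, overlap on opposite strands (33064569 to 33080748 and 33075990 to 33089696 on chromosome 6), and whether counting used strand is not given in the sources used here, so their reads cannot be fully told apart. In OVCAR4 ResB, RNA of HLA-DPB1 and, at low counts, of HLA-DPA1 was found while HLA-DRA stood at or near 0. HLA protein was not measured, and HLA-DRB1 was not analysed. HLA-DPB1 gave 0, 0 and 0 in OVCAR4, 1.04, 0 and 0 in OVCAR4 ResA, and 91.1, 101 and 82.2 in OVCAR4 ResB, and HLA-DPA1 0, 0 and 0 in OVCAR4, 0, 0 and 0 in OVCAR4 ResA, and 13.8, 18.8 and 13.2 in OVCAR4 ResB. OVCAR4 ResB was higher by at least 23.9-fold for HLA-DPB1 (adjusted p = 7.66e-09) and at least 3.998-fold for HLA-DPA1 (adjusted p = 0.00811), against the floor of 3 counts per library in OVCAR4. In OVCAR4 ResB the HLA-DPB1 call was lost without number 1 (adjusted p = 0.0726), and the HLA-DPA1 call without number 2 (adjusted p = 0.247) and number 3 (adjusted p = 0.229). In the OVCAR3 family HLA-DPA1 gave 5.49, 9.15 and 10.97 in OVCAR3, 4.61, 0 and 1.01 in OVCAR3 ResA, and 275, 94.1 and 54.4 in OVCAR3 ResB, and HLA-DPB1 13.3, 9.15 and 15.1 in OVCAR3, 10.1, 6.48 and 7.04 in OVCAR3 ResA, and 149, 49.4 and 24.7 in OVCAR3 ResB. OVCAR3 ResB was higher in both, by 3.78 ± 0.69 (SE, adjusted p = 2.46e-06) and 2.26 ± 0.73 (SE, adjusted p = 0.0298). Those calls were lost without number 1 (adjusted p = 0.0970 and 0.737), and that of HLA-DPB1 also without number 2 (adjusted p = 0.435).

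The PEO family differed in HLA-DP and HLA-DQ too. HLA-DPB1 gave 2.16, 1.74 and 2.71 in PEO1, 26.7, 20.6 and 31.8 in PEO4, and 157, 228 and 79.4 in PEO6, rising in the order of PEO1, PEO4 and PEO6 with no overlap. It was called in PEO4, at 3.60 ± 0.90 (SE, adjusted p = 3.86e-04), the only class II member higher there, and in PEO6, at 6.01 ± 0.71 (SE, adjusted p = 6.33e-16). HLA-DPA1 gave 0, 0.870 and 1.81 in PEO1, 7.78, 4.29 and 8.57 in PEO4, and 109.7, 199.6 and 77.8 in PEO6, and as PEO1 held 3 counts in all, PEO6 was 135-fold (exact 95% counting interval 45.9 to 657) higher. HLA-DQB1 gave 4.31, 0.870 and 0.904 in PEO1, 13.3, 8.59 and 1.22 in PEO4, and 40.7, 187 and 34.1 in PEO6, and was higher in PEO6 by 5.18 ± 0.87 (SE, adjusted p = 3.18e-08). HLA-DQA1 was found in PEO6 at 5.31, 22.9 and 7.15 and was at 0 in PEO1, at least 4.13-fold lower there, with an adjusted p of 0.00474. Of 10 alternative fits, that call was lost in 1 and had no value in 6, among them the fit without number 2. The mean in PEO6 was 0.763 ± 0.671 TPM.

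HLA-DMB, a chain of the peptide-loading HLA-DM, was called in 6 pairs, higher in 3 lines and lower in 3. It gave 10.99, 5.23 and 5.48 in OVCAR3, 68.2, 44.4 and 37.2 in OVCAR3 ResA, and 459, 238 and 261 in OVCAR3 ResB. HLA-DMB of the OVCAR4 lines gave 493, 479.9 and 649 in OVCAR4, 119, 238 and 138 in OVCAR4 ResA, and 67.6, 139 and 109 in OVCAR4 ResB. It was higher in both OVCAR3-derived lines, by 2.82 ± 0.60 (SE, adjusted p = 1.40e-05) in OVCAR3 ResA and 5.48 ± 0.54 (SE, adjusted p = 4.24e-21) in OVCAR3 ResB. In contrast, it was lower in both OVCAR4-derived lines, with changes of -1.79 ± 0.40 (SE, adjusted p = 2.86e-04) in OVCAR4 ResA and -2.42 ± 0.39 (SE, adjusted p = 4.01e-08) in OVCAR4 ResB and no overlap in either family. The PEA lines gave 466, 249 and 412 in PEA1 and 32.2, 37.3 and 86.4 in PEA2. HLA-DMB of the PEO lines gave 0, 1.74 and 0 in PEO1, 2.22, 3.43 and 7.34 in PEO4, and 99.95, 279 and 45.3 in PEO6. PEA2 was lower, at -2.92 ± 0.37 (SE, adjusted p = 2.18e-14), and PEO6, against 2 counts in all of PEO1, was 219.7-fold (exact 95% counting interval 60.5 to 1819.6) higher (adjusted p = 1.23e-12). The HLA-DMB calls lost when the libraries of 1 replicate number were left out were those in OVCAR4 ResA (adjusted p = 0.264 without number 3) and PEO6 (adjusted p = 0.110 without number 2). HLA-DMA, its partner chain, gave 56.1, 80.9 and 25.3 in PEO1, 97.8, 87.6 and 42.8 in PEO4, and 550.2, 894 and 457 in PEO6 and was called in PEO6 alone, at 3.60 ± 0.30 (SE, adjusted p = 1.36e-30).

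CTSS, the protease that degrades CD74, was called in 5 pairs. It gave 45.9, 38.1 and 49.6 in OVCAR4, 328, 598 and 571 in OVCAR4 ResA, and 226, 288 and 352 in OVCAR4 ResB. CTSS of the OVCAR3 lines gave 351, 275 and 276 in OVCAR3, 341, 182 and 267 in OVCAR3 ResA, and 486, 326 and 377 in OVCAR3 ResB. Both OVCAR4-derived lines lay above OVCAR4 in every library, by 3.41 ± 0.42 (SE, adjusted p = 1.47e-13) in OVCAR4 ResA and 2.66 ± 0.42 (SE, adjusted p = 9.20e-09) in OVCAR4 ResB, and the OVCAR3 family showed no call. The PEA lines gave 1555, 1142 and 1061 in PEA1 and 659.5, 571 and 477 in PEA2. CTSS of the PEO lines gave 65.8, 87.9 and 60.6 in PEO1, 36.7, 45.5 and 15.9 in PEO4, and 155, 125 and 148 in PEO6. PEA2 was lower, at -1.12 ± 0.23 (SE, adjusted p = 7.43e-06), PEO4 lower, at -1.18 ± 0.45 (SE, adjusted p = 0.0287), and PEO6 higher, at 0.98 ± 0.38 (SE, adjusted p = 0.0248). The CTSS calls lost when the libraries of 1 replicate number were left out were those in PEO4 (adjusted p = 0.199 without number 1, 0.223 without number 2, 0.221 without number 3) and PEO6 (adjusted p = 0.274 without number 1, 0.106 without number 2, 0.251 without number 3). HLA-DOA, a chain of HLA-DO, was at 20.5, 9.27 and 32.7 in PEA1 and at 0 in PEA2, at least 7.97-fold lower (adjusted p = 4.69e-05), and at 0 in PEO1 and 22.1, 44.8 and 9.53 in PEO6, at least 8.94-fold higher (adjusted p = 3.03e-05). HLA-DOB was called in 0 of 7 pairs by DESeq2 and 1 by edgeR, with an unadjusted p under 0.05 in 1 pair by each, and log2 changes from -0.75 ± 0.64 in OVCAR3 ResB to 1.24 ± 0.92 in OVCAR4 ResB.

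**Figure D4:**
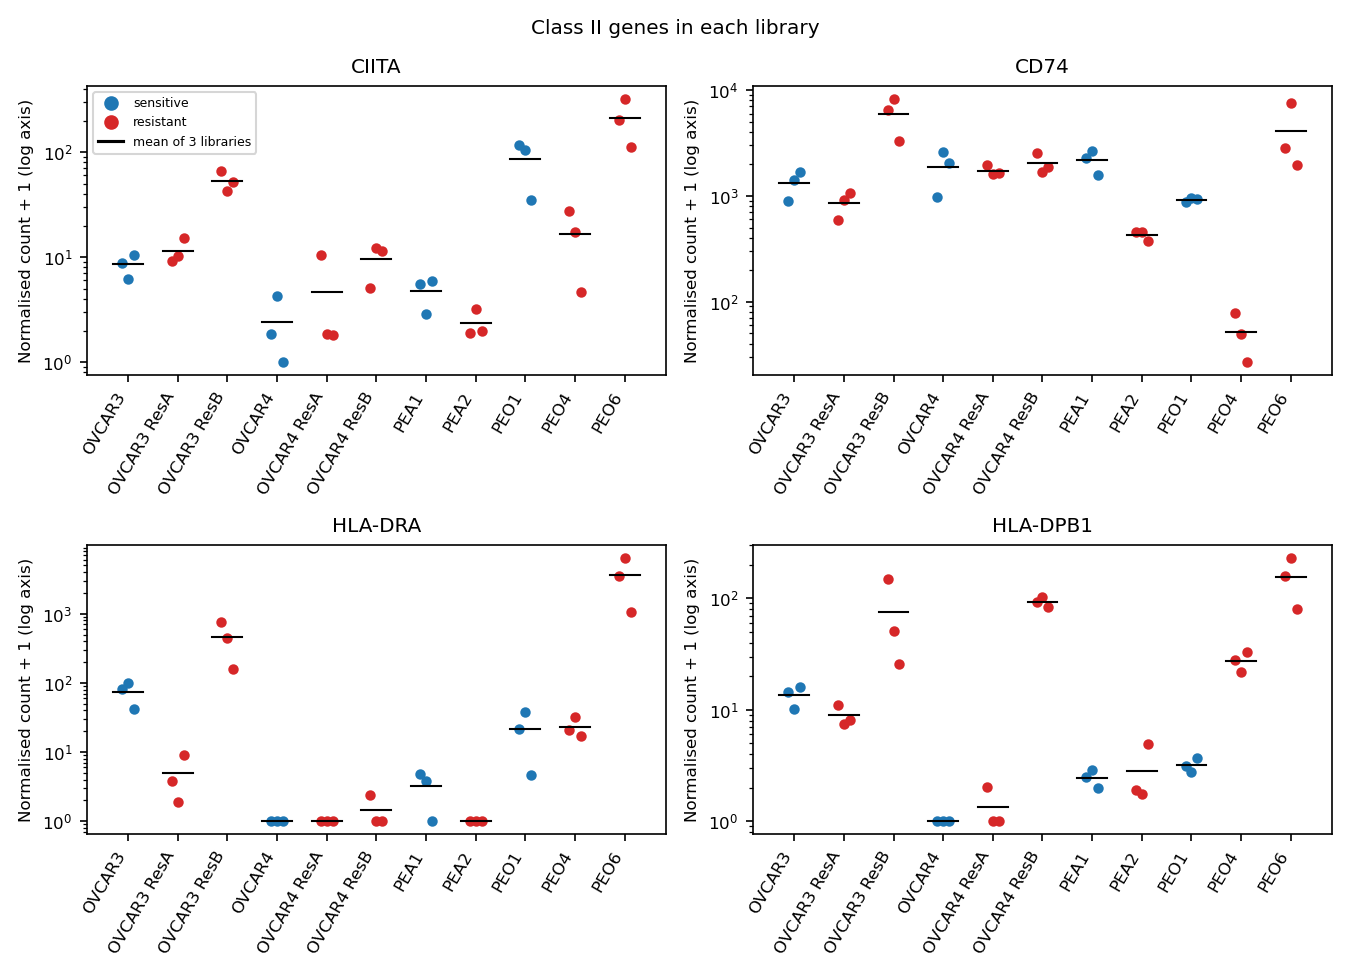
Normalised count + 1 on a log axis of CIITA, CD74, HLA-DRA and HLA-DPB1 in each of the 33 libraries, with sensitive lines in blue, resistant lines in red and the mean of 3 libraries as a bar. HLA-DRA is highest in PEO6 and then OVCAR3 ResB, HLA-DPB1 of OVCAR4 ResB stands far above OVCAR4 and OVCAR4 ResA, and CD74 of PEO4 is the lowest of all lines.

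Counted by pair, 11 of 13 class II members tested were higher in PEO6 and all but HLA-DOB and RFX5 were among them, with a median log2 change of 5.18, or 3.16 with the 2 members at 0 in PEO1 set to their lower bounds, and 6 of 11 were higher in OVCAR3 ResB, with a median of 2.15. In OVCAR3 ResA 1 of 11 was higher and 2 lower, in OVCAR4 ResA 1 of 6 was higher and 1 lower, and in OVCAR4 ResB 3 of 9 were higher and 1 lower. In PEA2 5 of 9 were lower, with a median of -1.46, and in PEO4 1 of 11 was higher and 3 lower. Read against the shares of all genes given above, PEO6 (21.2% higher), OVCAR3 ResB (4.10%) and OVCAR4 ResB (9.09%) had the larger class II counts. For decreases, the larger class II count was that of PEA2 (23.8% lower). A member near 0 in 1 line of a pair could be tested only where the other line was high. HLA-DQA1, tested in PEO6 alone, and HLA-DPA1 and HLA-DPB1 in OVCAR4 ResB are such members. These counts and medians are therefore partly fixed by which members could be tested. Over the 7 pairs, class I members gave 53 higher and 11 lower calls in 133 combinations of gene and pair, of which 5 could not be tested, and class II members 23 higher and 12 lower calls in 91, of which 21 could not be tested. Over the same pairs 15.0% of all tested combinations of gene and pair were higher and 14.8% lower. The 7 pairs share 4 sensitive lines and are not independent. PEO4 and PEO6, both set against PEO1, gave 13 and 15 of the 53 higher class I calls. Without number 1, 3 class II members were called in OVCAR3 ResB, and without number 2, 7 in PEO6. Of the 9 haematopoietic markers, PTPRC was at 0 in PEO6, and 2 of 9 reached 1 TPM in PEO6 and in PEO1. The 9 markers summed to 10.7 to 14.1 TPM in PEO6 and to 30.7 to 35.9 TPM in PEO1. Most of this was CD68, at 10.2 ± 1.79 TPM in PEO6 and 28.8 ± 2.82 TPM in PEO1. In OVCAR3 ResB the markers summed to 3.13 to 4.60 TPM against 1.92 to 2.84 TPM in OVCAR3. In OVCAR4 ResB they summed to 5.47 to 11.6 TPM against 2.57 to 3.20 TPM in OVCAR4. MS4A1 was at 0 in all of these lines. The part of these markers in the class II results was not tested.

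**Figure D5:**
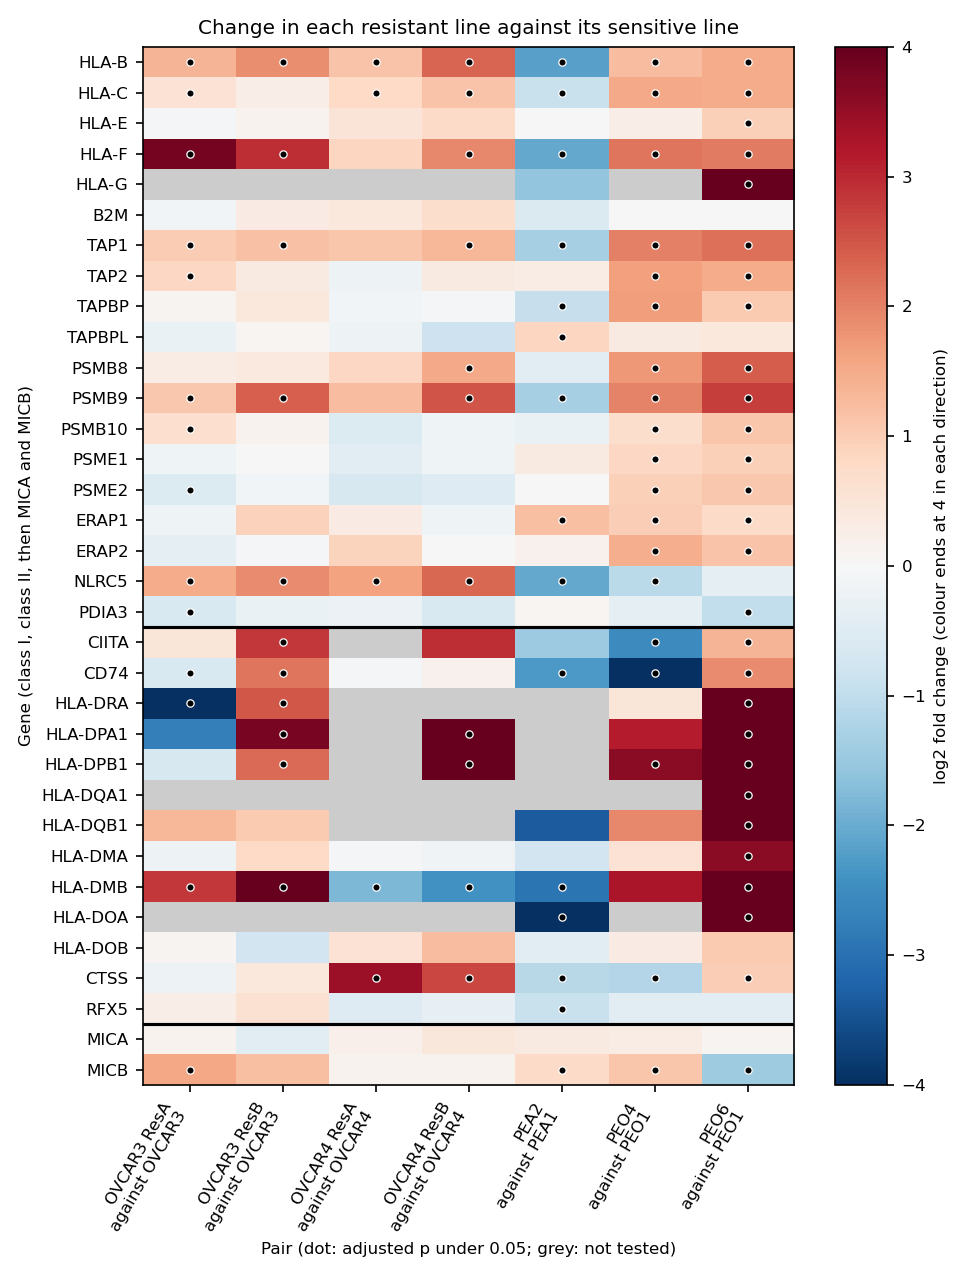
Log2 fold change of each gene in the 7 resistant-sensitive pairs, red where the resistant line was higher and blue where it was lower, with a dot where the adjusted p was under 0.05 and grey where the gene was not tested. In the class I block the called genes are mostly red outside PEA2, and the class II block runs from blue dots in PEA2 to red ones in PEO6.

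The 2 resistant lines of a family were then compared with each other, since their pairs share a sensitive line. OVCAR3 ResB had more class II RNA than OVCAR3 ResA. By DESeq2, 6 of 11 class II members were higher, where 7.47% of 16301 genes were higher and 6.04% lower, and 0 of 18 class I members were called, with 2 at an unadjusted p under 0.05. In edgeR the class I count was 0 as well, also with 2 at an unadjusted p under 0.05. HLA-DRA differed by 6.81 ± 0.73 (SE, adjusted p = 1.20e-18) and CD74 by 2.75 ± 0.40 (SE, adjusted p = 3.73e-10), and each had moved the opposite way in the 2 pairs. CIITA (2.31, adjusted p = 0.0145), HLA-DPA1 (6.38, adjusted p = 3.43e-11), HLA-DPB1 (2.90, adjusted p = 9.76e-04) and HLA-DMB (2.65, adjusted p = 1.64e-08) were the others. Without number 1 and without number 2, the call was lost for CIITA (adjusted p = 0.372 and 0.280) and HLA-DPB1 (adjusted p = 0.352 and 0.0938), and without number 3 there were 3 class I calls.

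PEO6 differed from PEO4 in class II as well. There, 11 of 13 class II members were higher, with a median log2 change of 3.86 (3.39 with the member at 0 in PEO4 set to its bound), against 9.86% higher and 8.33% lower of 16728 genes, and 1 of 19 class I members, HLA-G (at least 5.88-fold, adjusted p = 0.00164). HLA-DRA differed by 7.09 ± 0.40 (SE, adjusted p = 9.19e-67), CD74 by 6.19 ± 0.40 (SE, adjusted p = 8.22e-52), CIITA by 3.86 ± 0.52 (SE, adjusted p = 9.35e-12) and CTSS by 2.16 ± 0.50 (SE, adjusted p = 2.51e-04). In CD74, CIITA and CTSS the 2 pairs with PEO1 had been called in opposite directions. Without number 2, 7 class II members were called, and the class I count went from 1 to 6 without number 3 and to 0 without number 1 or number 2.

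OVCAR4 ResB differed from OVCAR4 ResA in class I. Of 18 class I members, 9 were higher and 3 lower, against 16.2% higher and 16.5% lower of 15911 genes. Same-numbered libraries deviated together in this comparison, with correlations of 0.79, 0.63 and 0.64, and without the replicate block 3 class I members were called in place of 12. HLA-B was higher in OVCAR4 ResB by 1.21 ± 0.12 (SE, adjusted p = 3.83e-21) and was called without the block too (adjusted p = 0.0102) and without any 1 replicate number. The other increases were of HLA-C, HLA-E, B2M, TAP2, PSMB8, PSMB9, PSME1 and NLRC5, from 0.26 ± 0.10 in HLA-E to 1.29 ± 0.45 in PSMB9, and the decreases of ERAP1, ERAP2 and PDIA3, from -0.86 ± 0.22 in ERAP2 to -0.35 ± 0.08 in PDIA3. Without number 2 the count was 1 and without number 3 it was 2. Of 9 class II members, HLA-DPA1 (at least 5.62-fold) and HLA-DPB1 were higher and CTSS lower (-0.75, adjusted p = 3.79e-04). The CTSS call was lost without the replicate block (adjusted p = 0.142) and without number 2 (adjusted p = 0.233). As OVCAR4 ResA held 1 HLA-DPB1 count in all, OVCAR4 ResB was 305-fold (exact 95% counting interval 54.4 to 12095) higher. The class II count was 1 without number 1 and 1 without number 2.

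MICA and MICB are ligands of the activating receptor NKG2D on natural killer and T cells. MICA was called in 0 of 7 pairs by DESeq2 and by edgeR, with 0 unadjusted p-values under 0.05, and log2 changes from -0.45 ± 0.41 in OVCAR3 ResB to 0.46 ± 0.35 in OVCAR4 ResB. MICB gave 221, 231 and 417 in PEO1, 583, 574 and 607 in PEO4, and 92.0, 68.6 and 186 in PEO6, so that PEO4 lay above PEO1 in every library and PEO6 below it. The changes were 1.11 ± 0.24 (SE, adjusted p = 2.26e-05) in PEO4 and -1.41 ± 0.31 (SE, adjusted p = 3.08e-05) in PEO6, and the lines differed by -2.52 ± 0.37 (SE, adjusted p = 5.29e-10). MICB was also higher in OVCAR3 ResA (141, 155 and 169.8 against 74.5, 41.8 and 48.0 in OVCAR3, log2 change 1.54, adjusted p = 7.12e-06) and in PEA2 (1775, 1390.0 and 1019 against 953, 610.1 and 931 in PEA1, log2 change 0.75, adjusted p = 0.0144). The MICB call lost when the libraries of 1 replicate number were left out was that in PEA2 (adjusted p = 0.265 without number 1 and 0.186 without number 2). Of 6 other NKG2D ligands, RAET1E and ULBP1 were higher in PEO4, by 2.66 ± 0.61 (SE, adjusted p = 8.84e-05) and 1.44 ± 0.31 (SE, adjusted p = 2.31e-05), as was RAET1L, near the threshold, by 2.20 ± 0.92 (SE, adjusted p = 0.0488). ULBP2 and ULBP3 were lower in PEO6, with changes of -2.30 ± 0.60 (SE, adjusted p = 6.66e-04) and -2.33 ± 0.40 (SE, adjusted p = 5.05e-08). In PEA2 ULBP1 was higher by 3.78 ± 0.65 (SE, adjusted p = 4.80e-08), in OVCAR3 ResA ULBP2 by 2.28 ± 0.31 (SE, adjusted p = 1.07e-12), in OVCAR3 ResB ULBP1 by 1.45 ± 0.48 (SE, adjusted p = 0.0367) and in OVCAR4 ResB ULBP2 by 1.57 ± 0.55 (SE, adjusted p = 0.0293).

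Of 7 genes of interferon gamma signalling, IRF1, a transcription factor induced by interferon gamma, was higher in PEO4 (1.13) and PEO6 (1.08), and JAK1, a receptor kinase, was lower in OVCAR3 ResA (-1.28) and PEO6 (-1.10). JAK2, its partner kinase, was higher in OVCAR4 ResB (1.31). By list, 1 of 7 was higher and 3 lower in OVCAR3 ResA, 2 higher in PEO4, 3 higher and 1 lower in PEO6, 1 higher and 1 lower in PEA2, and 1 higher in OVCAR4 ResB, with medians from -0.50 in PEA2 to 0.52 in PEO4. Of all genes tested, 22.0% were higher and 22.9% lower in OVCAR3 ResA, 16.6% and 16.7% in PEO4, 21.2% and 20.3% in PEO6, 23.3% and 23.8% in PEA2, and 9.09% and 8.77% in OVCAR4 ResB, and no result about the list is read from these counts.

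Of 6 other class II promoter factors, RFXANK, an RFX subunit, was lower in OVCAR3 ResA (-1.11), OVCAR4 ResA (-1.43) and OVCAR4 ResB (-1.30), and NFYC, an NF-Y subunit, in OVCAR3 ResA (-1.004). RFXAP, another RFX subunit, was higher in PEO6 (1.38). The list had 2 members higher and 3 lower in OVCAR3 ResA, 2 higher and 1 lower in PEO4, and at most 1 called in any other pair. Of 6 constitutive proteasome and chaperone genes, PSMB7, the standard counterpart of PSMB10, was lower in OVCAR4 ResA (-1.06) and OVCAR4 ResB (-1.45) and higher in PEO4 (1.22). That list had 3 members lower in OVCAR3 ResA, 2 lower in PEO6, and at most 1 called in any other pair. Of 5 lysosomal processing genes, CTSB, a cathepsin, was lower in OVCAR3 ResA (-1.82) and higher in OVCAR3 ResB (2.19), OVCAR4 ResB (1.11) and PEA2 (2.15). CTSL, another cathepsin, was lower in PEA2 (-1.85), and IFI30, a lysosomal thiol reductase, was lower in OVCAR4 ResA (-1.34). Of the 5, 3 were lower in OVCAR3 ResA, 1 higher and 2 lower in PEA2, 2 higher in PEO4, and at most 1 called in any other pair. These 3 lists too are counts of 5 or 6 genes beside shares of all genes of 22.0% higher and 22.9% lower in OVCAR3 ResA, 16.6% and 16.7% in PEO4, 21.2% and 20.3% in PEO6, and 23.3% and 23.8% in PEA2.

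With the line as the unit, counts were summed over the 3 libraries of a line and the 7 resistant lines compared with the 4 sensitive lines in a DESeq2 fit with family as a term. Of 34 members tested, 0 were called by DESeq2, where 0.130% of 23782 genes were higher and 0.156% lower. Unadjusted p-values under 0.05 numbered 5, all higher: HLA-DPA1 at 3.89 ± 1.45 (SE, adjusted p = 0.433), PSMB9 at 1.44 ± 0.58 (SE, adjusted p = 0.521), HLA-DPB1 at 3.20 ± 1.28 (SE, adjusted p = 0.521), HLA-F at 1.54 ± 0.67 (SE, adjusted p = 0.633) and PSMB8 at 0.80 ± 0.40 (SE, adjusted p = 0.828). In edgeR 0 of 33 members tested were called and 0 had an unadjusted p under 0.05. HLA-B, higher in 6 of 7 pairs, gave 0.96 ± 0.57 (SE, adjusted p = 0.969). The count stayed at 0 without the OVCAR3, the OVCAR4 or the PEO family. Without the PEA family, whose pair went the other way, 4 members were called higher. The share of all genes called in that fit is not given here, so no result about the members is read from it.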

How the data were processed

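RNA was extracted as total RNA from 33 samples of 11 cell lines and sequenced after selection of messenger RNA. The authors converted the runs with BCL Convert and processed them with the nf-core/rnaseq pipeline on GRCh38. They deposited estimated counts per gene and library from salmon, not normalised, and TPM values, that is, transcript abundances scaled to gene length and to the same total per library. The annotation release and the strand setting are not given in the sources used here.

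Estimated counts were rounded to whole numbers. Each pair of lines was fitted on its 6 libraries in DESeq2 1.42.0 (R 4.3.3), as in the study, with line and replicate number as terms, median-of-ratios size factors and a Benjamini-Hochberg threshold of 0.05 over all genes with an adjusted p. Genes left without an adjusted p count as not tested. A gene near 0 in 1 line could be tested only through the line where it was high. Counts of members called, in pairs and between resistant lines, are partly fixed by this. The 7 pairs, 3 comparisons between resistant lines, and a fit on counts summed per line were made. Replicate numbers paired the libraries, by correlations of their deviations above 0.1 at all 3 numbers, in 2 comparisons alone, that of OVCAR3 ResA with its parent (0.76, 0.35 and 0.58) and that between both resistant OVCAR4 lines. In both OVCAR4 pairs the correlations were negative at all 3 numbers (-0.55, -0.45 and -0.16 in OVCAR4 ResA). Over the 7 pairs, the calls lost without the replicate block were those of CD74, PSMB10 and PSME2 in OVCAR3 ResA. Alternatives were edgeR 4.0.16 quasi-likelihood tests with TMM factors, limma 3.58.1 on log2(TPM + 1) with at least 1 TPM in at least 3 libraries, without that filter, and on log2(TPM + 0.1), DESeq2 without the replicate block, on all 33 libraries, with a filter of 10 counts in 3 libraries, and without each replicate number. The test scripts were tested on simulated data. A line at 0 was set to a floor of 3 counts per library for a bound on the fold, and ratios over 1 to 3 counts carry an exact interval, both for counting error only.

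The genes, the other lists and the cell type markers were chosen with earlier results of these data known. Values per library are given for members called in at least 5 of 7 pairs, for members called in opposite directions by resistant lines of a family, and in each pair and class for the 2 largest increases and decreases among called members whose mean normalised count was 50 or more. Others were named after their values were seen. Genes of other lists are named where called with an absolute log2 change of at least 1. Gene positions and promoters are from RefSeq on GRCh38.p14, and no promoter entry was used for HLA-E, NLRC5, PDIA3, CIITA, HLA-DRA and CTSS. HLA-DRB1 was not analysed here, and some genes of the other lists and markers are not reported here.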

Additional observations from a re-analysis of the deposited data

Results flagged for a closer look

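In 6 cases the resistant lines of a family were called in opposite directions against their common sensitive line. A case was listed only if the resistant lines also differed in a DESeq2 fit of their own 6 libraries. Opposite calls against the same sensitive libraries make such a difference likely beforehand, so its adjusted p is no separate support. In the OVCAR3 family the cases were CD74, the invariant chain, with OVCAR3 ResB above OVCAR3 ResA by 2.754 on the log2 scale (adjusted p = 3.73e-10), and HLA-DRA, by 6.807 (adjusted p = 1.20e-18). In the PEO family, PEO6 was above PEO4 by 3.857 in CIITA (adjusted p = 9.35e-12), by 6.193 in CD74 (adjusted p = 8.22e-52) and by 2.155 in CTSS (adjusted p = 2.51e-04). MICB, a stress ligand, went the other way, with PEO6 against PEO4 at -2.523 (adjusted p = 5.29e-10). Some of the opposite calls were not stable. Those of CTSS in PEO4 and PEO6 were lost whichever replicate number was left out. That of CIITA in PEO6 was lost without number 2 (adjusted p = 0.122), and that of CD74 in OVCAR3 ResA without the replicate block (adjusted p = 0.125).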

How the results depend on the processing

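Every value here counts members called by DESeq2 in a comparison unless another tool is named, and a cause was not tested for any of them. The share of all genes called in each alternative fit is not given here. A count that moved is therefore not read as a trait of these members. Class I in OVCAR3 ResB went from 5 to 3 with edgeR, 3 with limma at either pseudocount, 0 with limma and no filter, and 1 to 4 when replicate numbers were left out in turn. Class I in OVCAR4 ResA went from 3 to 5 without the replicate block, 7 with all 33 libraries, 0 with edgeR and with each limma setting, and 0 to 9 when numbers were left out. In OVCAR4 ResB it went from 7 to 11 without the block and with all libraries, 4 with edgeR and with a pseudocount of 0.1, 0 with limma and no filter, and 1 to 14 with numbers left out. Class II went from 3 to 5 in OVCAR3 ResA and from 6 to 0 in OVCAR3 ResB with limma and no filter, and to 3 to 6 in OVCAR3 ResB with numbers left out. Class II in OVCAR4 ResA went from 2 to 1 with edgeR and with limma at either pseudocount, 0 with no filter, and 1 to 3 with numbers left out. In OVCAR4 ResB it went from 4 to 7 with all libraries, 2 with limma at either pseudocount and 0 with no filter. Leaving numbers out gave 5 to 11 in place of 9 for class I in PEA2 and 7 to 10 in place of 11 for class II in PEO6, and limma at either pseudocount gave 2 in place of 4 for class II in PEO4. For OVCAR3 ResB against OVCAR3 ResA, class I went from 0 to 1 without the block, 4 with all libraries and 0 to 3 with numbers left out, and class II from 6 to 0 with no filter. For OVCAR4 ResB against OVCAR4 ResA, class I went from 12 to 3 without the block, 6 with all libraries, 4 with no filter and 1 to 8 with numbers left out, and class II from 3 to 1 to 2. For PEO6 against PEO4, class I went from 1 to 6 without the block, 7 with all libraries, 0 with each limma setting and 0 to 6 with numbers left out, and class II from 11 to 2 with no filter and 7 to 11 with numbers left out. Over lines, the count went from 0 to 4 without the PEA family, a fit whose share of all genes called is not given here. The remaining counts stayed within 1.5 times the main value. ERAP1 in OVCAR4 ResB ran from -0.53 to 0.41 (log2) with numbers left out and was called at 0.41 without replicate 1, the only gene value to change sign with a call. Of the calls made, 9 of 14 in OVCAR3 ResA, 7 of 15 in PEA2, 13 of 19 in PEO4 and 20 of 28 in PEO6 were kept under all 10 alternatives, and 0 in OVCAR3 ResB, OVCAR4 ResA and OVCAR4 ResB. HLA-DOA in PEA2 and PEO6 and CIITA in PEO4 were kept under 8 and had no value in the other 2.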
